A study of Mus musculus and Rattus norvegicus with 24 samples.

Results

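The genes described here are 50 developmental growth factor signalling genes, the members of the TGF-beta, BMP, SMAD, Wnt, Frizzled, FGF, IGF, PDGF and Notch families whose symbols open with Tgfb, Bmp, Smad, Wnt, Fzd, Fgf, Igf1, Igfbp, Pdgf or Notch. They are all such genes among the 9595 genes with deposited read counts, and were taken by name, not by level. By family they are 5 TGF-beta, 7 BMP, 7 SMAD, 8 Wnt and Frizzled, 11 FGF, 7 IGF, 3 PDGF and 2 Notch genes. A few share only the first letters of the symbol, and others differ from the rest of their family. Fgfr1op and Fgfr1op2 are named after a fusion partner of an FGF receptor and are not receptors, Tgfbi is a matrix protein made in response to TGF-beta, and Fgf11 and Fgf13 belong to FGFs that stay inside the cell.

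They were measured by RNA sequencing in 24 single cells labelled as cardiomyocytes, the contracting cells of the heart, 8 in each of 3 groups. Transplanted cells were mouse cardiomyocytes made from embryonic stem cells carrying Isl1-Cre, Rosa-RFP and aMHC-GFP, placed in the heart of a neonatal rat and taken back after 30 days in vivo. Cultured cells came from stem cells of the same genotype and had been kept for 30 days in vitro. Adult cells were cardiomyocytes of adult wild-type (WT) rats, isolated from the ventricle. The aMHC promoter drives expression in cardiomyocytes, and Isl1 marks a cardiac progenitor lineage. Both stem cell groups carry the same reporters, the labels name 1 such genotype, and the heart that received the cells was still the rat's own. The title of the series concerns maturation of stem cell derived cardiomyocytes after neonatal transplantation, so the comparisons ask how the transplanted cells stand against cells left in culture and against adult cells.

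These families are the main secreted signals that build the embryonic heart. TGF-beta and BMP ligands bind paired serine/threonine kinase receptors, which phosphorylate SMAD proteins that then enter the nucleus with Smad4. Wnt ligands bind Frizzled receptors, FGF, IGF and PDGF ligands bind receptor tyrosine kinases, IGF binding proteins hold IGFs outside the cell, and Notch receptors are cleaved after contact with a ligand on a neighbouring cell. In the heart, BMPs and Wnts act in the forming myocardium and valves, FGFs and IGFs act on the growth of cardiomyocytes, and PDGF receptor alpha marks cells of the epicardial and fibroblast lineages.

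The labels name no animal and no culture, so each group of 8 cells counts as 1 sample, no test between groups was made, and letters A to H only name cells. Values are sums of read counts over a group, given per 1000000 counts of the listed genes (CPM), with intervals at 95% that cover counting error only, since reads copied by PCR are not independent molecules. Cells had 88796 to 344224 counts in the transplanted group, 16099 to 60789 in the cultured group and 108546 to 223744 in the adult group. A group at 0 was set to a floor of 3 counts, which is 2.30 CPM for transplanted, 14.6 CPM for cultured and 2.36 CPM for adult cells, so a ratio to such a group is a lower bound. The 14 cardiomyocyte markers took 18.3% to 24.8% of the counts of transplanted cells and 19.2% to 24.6% of adult cells. In cultured cells they took 0.00837% to 17.5%, and cells F, G and H had 0.742%, 0.0883% and 0.00837%, with 3, 1 and 2 of the 14 markers detected. Those 3 cells go against their label, and the values of results that rest on them are given with and without them, or the cells that hold the counts are named. The ribosomal RNA gene Rn45s took 1.29% to 13.2% of the counts of cultured cells, against 0.547% to 1.78% in transplanted and 0.748% to 1.95% in adult cells. The RNase P RNA Rpph1 took up to 5.48% in cultured cells and at most 0.00179% in the others. The part of depth and of these RNAs in the results was not tested. Adult rat cells were counted on the mouse build mm10, so for them species and stage cannot be told apart.

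Cultured cells held most of the growth factor signalling reads. The 50 genes took 0.677% of all cultured counts (1395 counts, interval 0.642% to 0.713%), 0.0170% of transplanted counts (221 counts, 0.0148% to 0.0194%) and 0.0178% of adult counts (226 counts, 0.0155% to 0.0202%). The lowest, median and highest cell had 0.391%, 0.621% and 1.21% in culture, 0%, 0.000563% and 0.0990% after transplantation, and 0%, 0.00508% and 0.0505% in adult cells. Every cultured cell lay above every transplanted and every adult cell. No gene of the set had a count in transplanted cells D, E, F and H or in adult cells D, E and F. Without cultured cells F, G and H the cultured share was 0.510% (0.474% to 0.549%), and the lowest cell, E, is among the 5 that remain.

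**Figure D1:**
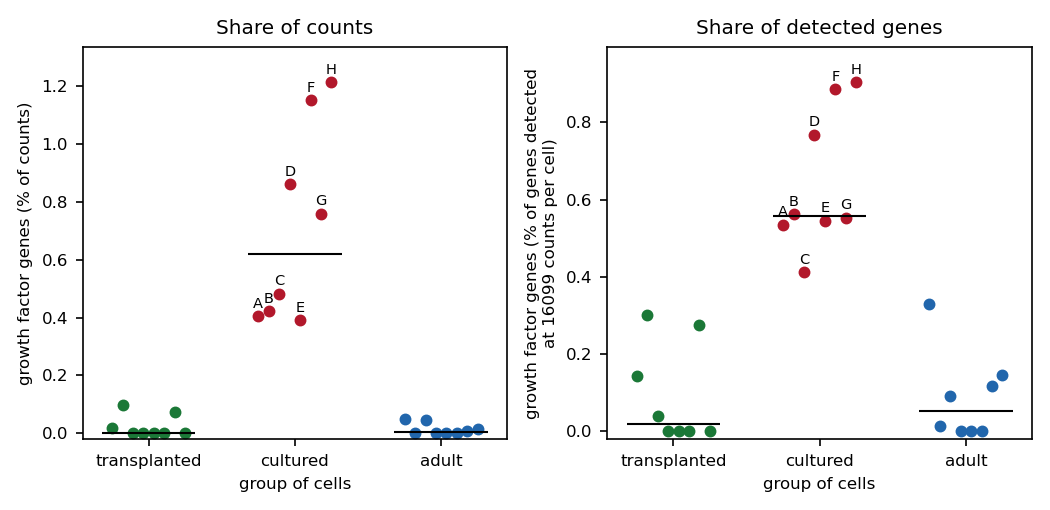
Points are single cells, 8 per group, and lines are group medians, for the percent of counts on the 50 genes (left) and the percent of detected genes that are of the 50 after thinning to 16099 counts (right), with cultured cells lettered. All 8 cultured cells sit at 0.391% or more and the highest transplanted cell sits at 0.0990%.

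The number of genes detected showed the same order. Cultured cells had a count for 6 to 15 of the 50 genes, with a median of 9. Transplanted cells had 0 to 5, with a median of 0.5, and adult cells 0 to 3, with a median of 1.5. When each cell was thinned to 16099 counts, the depth of the shallowest cell, the median number expected was 9 in culture (5.50 to 13.1), 0.0907 after transplantation (0 to 3.17) and 0.577 in adult cells (0 to 1.72). Cultured cells also had more genes of every kind at that depth, 717 to 2438 against 455 to 1047 in transplanted and 504 to 1220 in adult cells. As a share of all genes detected at that depth, the 50 made 0.412% to 0.904% in cultured cells, at most 0.302% in transplanted and at most 0.328% in adult cells. Cultured cells overlapped neither group, and transplanted and adult cells overlapped each other.

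Over a whole group, 42 of the 50 genes had a count in culture, 9 after transplantation and 9 in adult cells. That is 84% of the set in culture against 76.2% of all 9595 genes, but 18% in transplanted cells against 32.6% of all genes, and 18% in adult cells against 38.1%. Counts were seen in cultured cells and no other for 31 genes, in adult cells alone for Igfbp6, Pdgfa and Wnt5b, and in transplanted cells alone for Fgf16. The like numbers over all genes were not taken. Since genes of every kind were counted more often in culture, nothing particular to the set is read from the 31. Fgfr1op2, which is no receptor, was the 1 gene counted in all 3 groups. Fgf13, Igfbp7 and Tgfbr3l had no count in any cell, where the upper limit at 95% was 17.9 CPM in cultured, 2.83 in transplanted and 2.90 in adult cells.

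Within the cultured group each gene was carried by few cells. Of the 42 genes, 21 had counts in 1 cell, 10 in 2 cells, 6 in 3, 3 in 4 and 2 in 5, and none in more. Among the 23 with at least 10 cultured counts, the median gene was detected in 2 cells and had 73.5% of its counts in 1 cell. Over all 3646 genes with as many cultured counts the values were 2 cells and 80.0%, and 21.7% of the set against 26.5% of all such genes had their counts in 1 cell. A level given for the group is therefore often that of 1 or 2 cells.

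**Figure D2:**
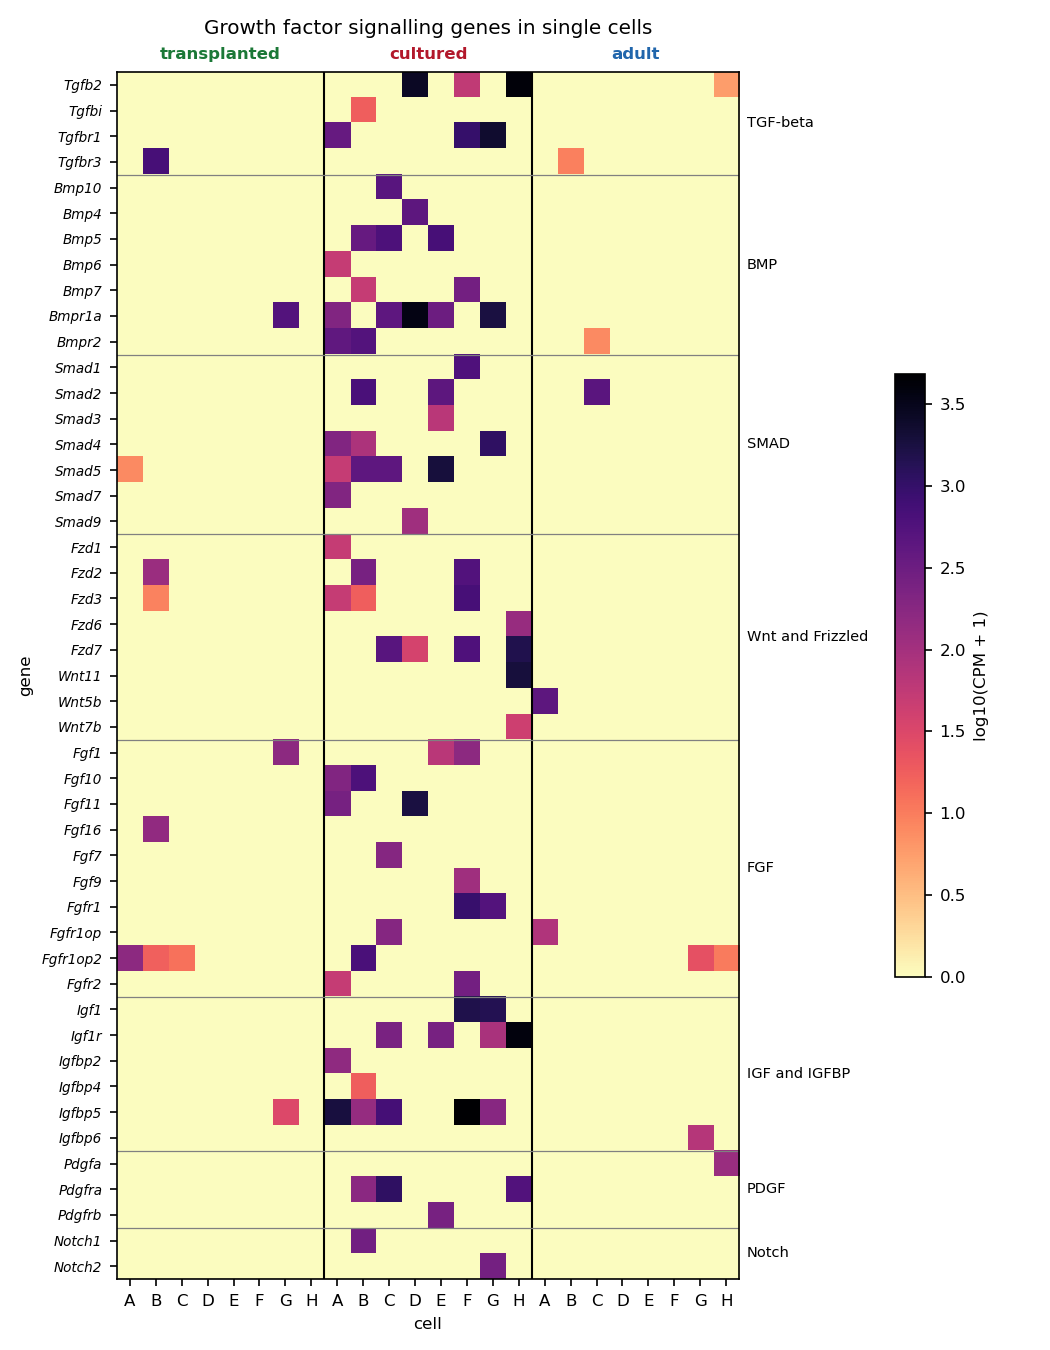
Levels of the 47 genes with a count (rows, by family) in the 24 cells (columns, by group), as log10 of CPM with 1 added, pale yellow standing for 0. The cultured block holds scattered counts in 42 rows, and the transplanted and adult blocks hold counts in 9 rows each.

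Among TGF-beta ligands and receptors, the ligand Tgfb2 had the highest cultured level of the whole set. Tgfb2 lies at chr1:186622792-186705989 on the minus strand of GRCm38. Its 175 cultured counts, 849 CPM (728 to 984), were in 3 cells, with 98 in H, 76 in D and 1 in F. The lowest, median and highest cultured cell had 0, 0 and 4103 CPM. Transplanted cells had 0 counts and adult cells 1, in cell H. Tgfb2 was thus at least 369-fold lower in transplanted than in cultured cells, and 1079-fold lower in adult cells (191 to 42869). Without cultured cell H the values were at least 183-fold and 537-fold, and without adult H the second was at least 299.99-fold. Without cultured cells F, G and H Tgfb2 was at least 234-fold and 685-fold lower, from the counts of cell D.

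The type I receptor Tgfbr1 had 76 cultured counts, 369 CPM (290 to 461), with 51 in cell G, 18 in F and 7 in A. It had none in the other groups, so it was at least 160-fold lower in transplanted and at least 156-fold lower in adult cells. Without cultured cell G these bounds fell to 59.2-fold and 57.7-fold, and without F, G and H to 21.5-fold and 21.02-fold. Tgfbr3, the co-receptor betaglycan that presents TGF-beta to the signalling receptors, had the opposite distribution. All but 1 of its 88 counts were in transplanted cell B, with 87, which is 66.8 CPM (53.5 to 82.4) for the group, and the other was in adult cell B. Tgfbr3 was at least 4.59-fold higher in transplanted than in cultured cells and 84.9-fold lower in adult than in transplanted cells (14.8 to 3392), and no ratio remains in either without transplanted cell B, while the second was at least 25.7-fold without adult B. Tgfbi had 1 count, in cultured cell B.

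The 3 genes with the most cultured counts were Tgfb2, Bmpr1a and Igfbp5, with 175, 155 and 149 of the 1395 of the set. The sequences before their starts are shown. Each is the stretch of up to 250 bases before the RefSeq start on GRCm38.p6, minus strand, 5′ to 3′, less any bases inside an annotated exon of the gene. Capitals mark the TATA box TATAAA, the GC box GGGCGG, the CCAAT box CCAAT, the TCF core CTTTGA and the SMAD-bound element CAGACA, on either strand. These windows are chr1:186705990-186706239 for Tgfb2, chr14:34502688-34502796 for Bmpr1a and chr1:72874885-72875115 for Igfbp5.
Tgfb2: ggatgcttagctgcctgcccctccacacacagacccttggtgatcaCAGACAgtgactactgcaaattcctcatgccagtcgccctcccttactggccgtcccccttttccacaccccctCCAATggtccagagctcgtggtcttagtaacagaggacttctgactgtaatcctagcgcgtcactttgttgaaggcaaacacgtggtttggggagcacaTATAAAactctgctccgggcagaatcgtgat
Bmpr1a: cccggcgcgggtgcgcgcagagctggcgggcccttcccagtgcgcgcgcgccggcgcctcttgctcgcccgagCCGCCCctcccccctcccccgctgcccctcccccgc
Igfbp5: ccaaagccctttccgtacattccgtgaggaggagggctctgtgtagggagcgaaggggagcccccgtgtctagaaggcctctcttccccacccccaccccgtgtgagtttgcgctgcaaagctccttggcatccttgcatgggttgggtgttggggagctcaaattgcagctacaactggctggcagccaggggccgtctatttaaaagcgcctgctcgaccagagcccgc
The Tgfb2 window held 1 TATA box, 1 CCAAT box and 1 CAGACA, the 109 bases of Bmpr1a held 1 GC box, and the 231 bases of Igfbp5 held none of the 5. Over 250-base windows of 36 of the 50 genes, 23 held a GC box, 13 a CCAAT box, 6 CAGACA, 5 a TATA box and 5 CTTTGA. The shares among 7427 listed genes with a window were 64.3%, 40.6%, 15.6%, 8.08% and 12.6%, so the GC box was as common in the set (63.9%) as elsewhere. Over all 32851 RefSeq windows of that length they were 32.7%, 33.8%, 17.1%, 12.4% and 13.8%. A match of letters is not evidence of binding.

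Among BMP ligands, Bmp5 was the most counted. Its 43 cultured counts, 209 CPM (151 to 281), were in B with 22, E with 11 and C with 10, and all are cells that had cardiomyocyte markers at 4.75% of counts or more. Bmp5 was at least 90.6-fold lower in transplanted and at least 88.4-fold lower in adult cells. Of its exon bases, 46.7% lie under exons of another annotated gene, Gm26903, and with no strand setting given their reads cannot be told apart. Bmp4, which acts in the outflow tract and mesoderm, had 12 counts in cultured cell D. Bmp10, a ligand of the trabecular and atrial myocardium, had 8 in C, Bmp7 had 3 in B and 5 in F, and Bmp6 had 1 in A. No BMP ligand had a count in transplanted or adult cells.

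The type I BMP receptor Bmpr1a was counted in 5 cultured cells, the most of any gene of the set besides Igfbp5. It lies at chr14:34410734-34503341 on the minus strand. The cultured cells had 99 counts in D, 40 in G, 7 in C, 5 in E and 4 in A, which is 752 CPM (638 to 880). The lowest, median and highest cultured cell had 0, 256 and 3550 CPM. In transplanted cells all 54 counts were in cell G, 41.4 CPM (31.1 to 54.1), and adult cells had none. Bmpr1a was 18.1-fold lower in transplanted than in cultured cells (13.2 to 25.2) and at least 319-fold lower in adult cells. The first ratio rests on 2 cells, since it was 7.58-fold without cultured cell D and at least 301-fold without transplanted cell G. The adult bound was at least 133-fold without cultured D. Bmpr2, the type II receptor that activates Bmpr1a, had 32 counts in cultured B and 8 in A, 194 CPM (139 to 264). Bmpr2 was at least 84.3-fold lower in transplanted cells and 247-fold lower in adult cells (41.8 to 9984), where cell C had 1 count. Without cultured B these were at least 23.9-fold and 70.0-fold, and without adult C the second was at least 72.9-fold.

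All 7 SMAD genes had counts in culture. Smad5, which carries BMP signals, had 30 counts in cell E, 26 in B, 7 in C and 1 in A, which is 310 CPM (239 to 396). A single count in transplanted cell A made it 404-fold lower there (70.0 to 16220), or at least 120-fold lower without that cell, and adult cells had none, at least 132-fold lower. Without cultured E the values were 233-fold and at least 75.8-fold. Smad2, which carries TGF-beta signals, had 40 counts in cultured B and 7 in E, none after transplantation, and 66 in adult cell C. It was at least 99.0-fold lower in transplanted than in cultured cells, and at least 20.9-fold without cultured B. For adult cells the ratio was 4.39-fold lower (2.96 to 6.48), and it turned to 1.08-fold higher without cultured cell B and to at least 85.7-fold lower without adult cell C. Smad4, the partner shared by both branches, had 25 counts in cultured G, 5 in B and 4 in A. Smad4 was at least 71.6-fold lower in transplanted and at least 69.9-fold lower in adult cells, and 27.7-fold and 27.0-fold at least when F, G and H were left out. Without G alone the bounds were 21.3-fold and 20.8-fold. Smad1 had 11 counts in F, the inhibitory Smad7 had 4 in A, Smad9 had 3 in D and Smad3 had 1 in E. Of the 2 groups outside culture, SMAD reads were in 1 transplanted cell with 1 count and in 1 adult cell.

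Of the Wnt ligands, Wnt11, a non-canonical ligand of the embryonic outflow tract, was counted in cultured cell H alone, with 45 counts, 218 CPM (159 to 292). That made it at least 94.8-fold lower in transplanted and at least 92.5-fold lower in adult cells, and no ratio remains without cell H, which had almost no cardiomyocyte markers. Wnt5b, another non-canonical ligand, had 96 counts in adult cell A and none elsewhere, 75.5 CPM (61.2 to 92.2). It was at least 5.19-fold higher in adult than in cultured cells and at least 32.8-fold higher than in transplanted cells, again with no ratio left without that cell. Wnt7b had 1 count in cultured H.

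The receptor Fzd7 was counted in cultured H with 36, F with 11, C with 8 and D with 1, 272 CPM (205 to 353). Fzd7 was at least 118-fold lower in transplanted and at least 115-fold lower in adult cells, and at least 47.6-fold and 46.5-fold without cultured H. The bounds were 27.7-fold and 27.0-fold without F, G and H. Fzd2 had 15 counts in cultured B and 10 in F, and 15 in transplanted B. It was 10.5-fold lower in transplanted than in cultured cells (5.34 to 21.5), 5.97-fold without cultured B, 6.94-fold without cultured F and at least 47.6-fold without transplanted B. In adult cells it was at least 51.4-fold lower, 29.2-fold at least without cultured B and 33.9-fold at least without F. Fzd3 had 13 counts in cultured F and 1 each in A, B and transplanted B. Fzd6 had 3 in cultured H and Fzd1 had 1 in A. No Frizzled receptor had a count in adult cells.

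**Figure D3:**
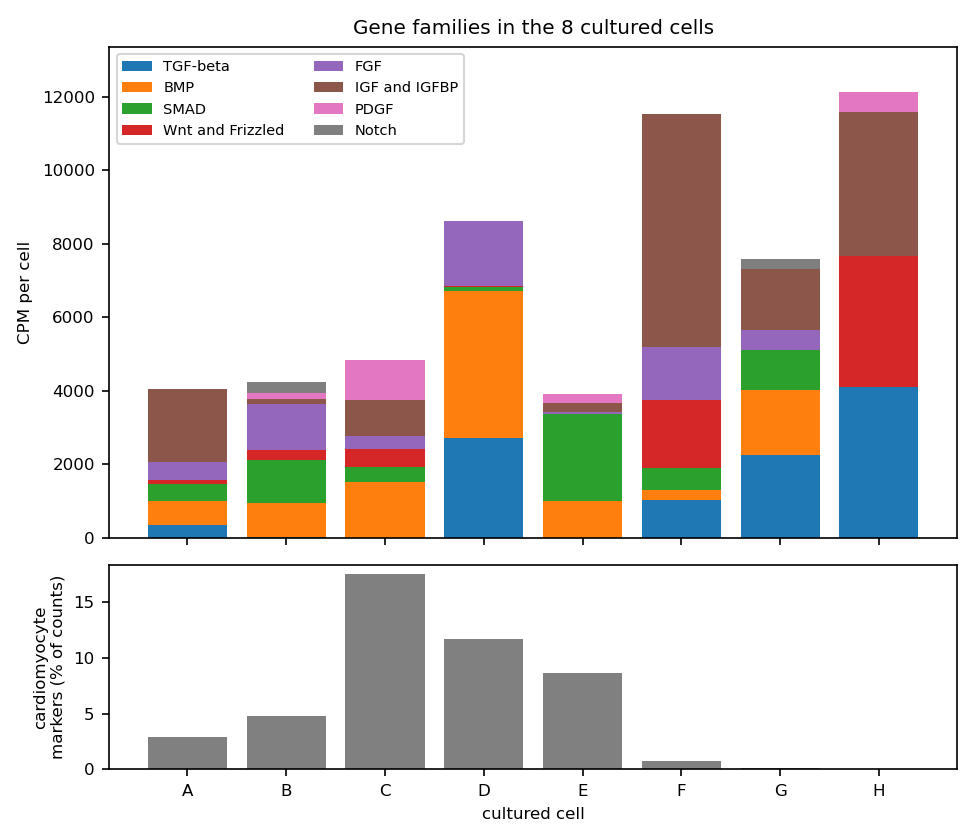
Stacked bars give the CPM of each of the 8 families in each cultured cell (top), above the percent of counts on the 14 cardiomyocyte markers (bottom). TGF-beta genes reach 4103 CPM in cultured cell H, BMP genes 3981 CPM in cell D and IGF genes 6333 CPM in cell F.

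The mix of families differed from cell to cell in culture. Counts on IGF genes led in F with 6333 CPM, and also in A with 1969 CPM, while cell H held 3935 CPM of them beside 4103 CPM of TGF-beta and 3559 CPM of Wnt and Frizzled genes. BMP genes led in D with 3981 CPM, SMAD genes in E with 2360 CPM, and Notch genes were counted in B with 280 CPM and G with 265 CPM alone. No family had a count in all 8 cells. BMP, SMAD, FGF and IGF genes had counts in 7 of 8 cultured cells, against 1, 1, 4 and 1 transplanted cells and 1, 1, 3 and 1 adult cells. The FGF counts of the 3 adult cells and of transplanted A and C were all on Fgfr1op or Fgfr1op2, which are not receptors.

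Among FGFs, the intracellular Fgf11 had 49 counts in cultured D and 5 in A, 262 CPM (197 to 342), and none in the other groups. It was at least 114-fold lower in transplanted and at least 111-fold lower in adult cells, and 12.2-fold and 11.9-fold at least without cultured D. Fgf10, a mesenchymal ligand of the second heart field, had 37 counts in cultured B and 4 in A. Fgf10 was at least 86.4-fold lower in transplanted and at least 84.3-fold lower in adult cells, or 11.9-fold and 11.7-fold at least without cultured B. Fgf1, a ligand of all FGF receptors, had 16 counts in transplanted G against 3 in cultured F and 1 in E. Its group levels were 12.3 CPM and 19.4 CPM, a ratio of 1.58-fold lower (0.384 to 4.90), which turned to 2.31-fold higher without cultured cell F and to at least 7.78-fold lower without transplanted cell G. Fgf16, a ligand made in the myocardium, had 18 counts in transplanted B and none elsewhere. Fgf7 had 3 counts in cultured C and Fgf9 had 2 in F.

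The receptor Fgfr1 had 17 counts in cultured F and 12 in G, 141 CPM (94.2 to 202), and none elsewhere. Fgfr1 was at least 61.1-fold lower in transplanted and at least 59.6-fold lower in adult cells. The bounds were 27.8-fold and 27.1-fold without F and 40.2-fold and 39.3-fold without G. All of its counts came from 2 of the 3 cells with few cardiomyocyte markers. Fgfr2 had 5 counts in F and 1 in A. Fgfr1op had 17 counts in adult A and 3 in cultured C, 13.4 and 14.6 CPM, 1.09-fold lower in adult cells (0.204 to 3.76), a ratio that rests on 1 cell of each group. Fgfr1op2 had 39 counts in cultured B, 26 over transplanted A, B and C, and 6 over adult G and H. It was 9.48-fold lower in transplanted cells (5.63 to 16.2) and 40.1-fold lower in adult cells (16.9 to 116), and neither was lower without cultured B, which held all cultured counts. The first was 73.2-fold without transplanted A and the second 104-fold without adult G.

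In the IGF family, Igfbp5, a binding protein that holds IGFs in the matrix, was the most counted gene. Igfbp5 lies at chr1:72857932-72874884 on the minus strand. It had 89 counts in cultured F, 36 in A, 12 in C, 8 in B and 4 in G, 723 CPM (611 to 848). The lowest, median and highest cultured cell had 0, 154 and 4817 CPM. Transplanted cell G had 3 counts and adult cells none. Igfbp5 was 314-fold lower in transplanted than in cultured cells (105 to 1539) and at least 306-fold lower in adult cells. Without cultured F the values were 139-fold and at least 135-fold, and without F, G and H they were 172-fold and at least 168-fold. Without transplanted G the first was at least 289.7-fold.

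The receptor Igf1r had 94 counts in cultured H, 4 in C, 4 in E and 2 in G, 504 CPM (412 to 611), and none in other groups. Igf1r was at least 219-fold lower in transplanted and at least 214-fold lower in adult cells, and at least 23.8-fold and 23.3-fold lower without cell H, or 24.6-fold and 24.02-fold without F, G and H. The ligand Igf1 had 32 counts in cultured G and 28 in F, 291 CPM (222 to 375), and none in any other cell. It was at least 126-fold lower in transplanted and at least 123-fold lower in adult cells, with bounds of 74.0-fold and 72.3-fold without F and 66.3-fold and 64.7-fold without G. Like Fgfr1 and Wnt11 it had no cultured count once cells F, G and H were left out. Of the other binding proteins, Igfbp2 had 3 counts in cultured A, Igfbp4 had 1 in B and Igfbp6 had 12 in adult G.

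PDGF and Notch genes were the least counted. Pdgfra, which also stood in the list of fibroblast markers, had 18 counts in cultured C, 13 in H and 10 in B, 199 CPM (143 to 270), and none in the other groups. Pdgfra was at least 86.4-fold lower in transplanted and at least 84.3-fold lower in adult cells, and at least 52.7-fold and 51.4-fold lower without cultured C. Of the 6 listed fibroblast markers Col1a2 was the other with cultured counts, and Col3a1, Dcn, Lum and Postn were at 0 in culture. The 6 summed to at most 0.109% of a cultured cell, 0% of transplanted cells and at most 0.000582% of adult cells. The highest cultured sum, in C, and that in H were Pdgfra counts alone, so they are not independent of the set. The 6 smooth muscle and pericyte markers summed to at most 0.177% in cultured, 0.00901% in transplanted and 0.164% in adult cells. Pdgfrb of the set is 1 of these 6, and it made up the whole sum in cultured E. Of 5 endothelial markers 1 had a single count in culture. The 2 macrophage markers had counts in cultured B and C alone, at 0.0345% and 0.0362%. Of 5 pluripotency markers, 4 had counts in culture, Esrrb was at 0, and they summed to 0.135% in cell F, 0.0963% in H and at most 0.0151% in the other cultured cells. They summed to 0.00161% to 0.0372% in transplanted cells, all of it Sox2, and 0.00508% to 0.762% in adult cells, as Sox2 and Esrrb. The part of other cell types in these levels was not tested. Pdgfrb had 4 counts in cultured E. The ligand Pdgfa had 26 counts in adult H alone, and 26.1% of its exon bases lie under another gene, 6330403L08Rik. Pdgfa was at least 8.88-fold higher in adult than in transplanted cells and at least 1.41-fold higher than in cultured cells, a lower bound that the cultured depth sets. Notch1 had 17 counts in cultured B and Notch2 had 6 in G, and neither had a count outside culture.

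Levels of different genes can be compared only per length of exon. Per kilobase, Tgfb2 stood at 147 CPM (126 to 170), Igfbp5 at 120 (102 to 141) and Bmpr1a at 118 (100.5 to 139) in cultured cells, and these 3 intervals overlap. Fgf11 followed with 86.0 CPM per kilobase (64.6 to 112), then Fzd7 with 59.9, Tgfbr1 with 56.4, Wnt11 with 52.8 and Bmp5 with 51.8, whose intervals all overlap one another. Igf1r, which followed these 3 by CPM, stood at 30.0 CPM per kilobase (24.6 to 36.4). Outside culture the highest levels per kilobase were 28.4 for Wnt5b in adult cells (23.0 to 34.7) and 10.2 for Tgfbr3 in transplanted cells (8.17 to 12.6). The median exon length was 4610 bases for the 50 genes and 4566 for all genes, and with at least 10 cultured counts it was 6262 for the set and 5419 for all genes.

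**Figure D4:**
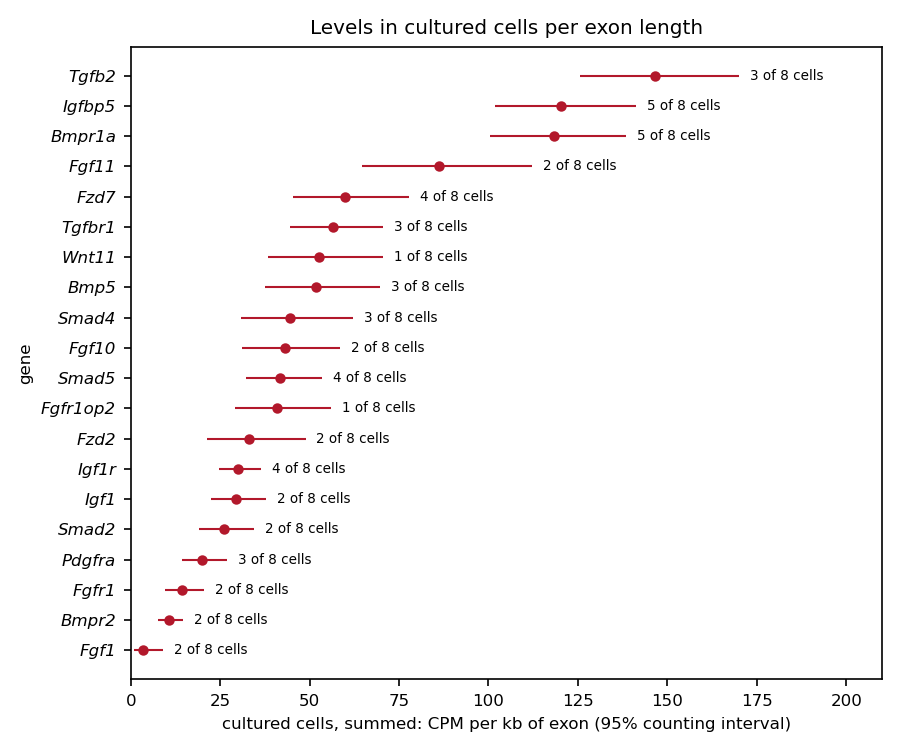
Points give the CPM per kilobase of exon over all cultured cells and bars the 95% counting interval, for the genes with at least 20 counts in all and more than 3 in culture, with the number of cells that had a count. Tgfb2, Igfbp5 and Bmpr1a lead at 147, 120 and 118, from 3, 5 and 5 cells.

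A gene was called when its 2 groups differed by 2-fold or more, among genes with at least 10 counts over both. Against cultured cells, 23 of 26 measured genes of the set were lower after transplantation, while 64.0% of all 4958 measured genes were lower. The 1 gene that was higher was Tgfbr3, where 22.5% of all genes were higher, and Fgf1 and Fgf16 were neither. Adult cells had 23 of 27 lower against a background of 62.1%, and 1 higher, Wnt5b, against 23.0%. Fgfr1op, Igfbp6 and Pdgfa were neither. The 2 comparisons share the cultured cells and are not independent. These counts are weighted by how genes became measured: 23 genes of the set had at least 10 counts in culture alone, and in shallow cells a gene with such counts lies far above the floor of the deeper groups. Among all 3646 genes with at least 10 cultured counts, 84.6% were lower in transplanted and 84.0% in adult cells, and all 23 of the set were in both, so most genes counted in culture were lower, of whatever kind.

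The sizes depend on which genes are taken as background. The median log2 ratio of transplanted to cultured CPM, with 1 CPM added, was -7.53 for the set and -5.63 for all genes. With groups at 0 set to their floor the medians were -6.43 and -4.53. For adult against cultured cells they were -7.37 and -3.85, or -6.40 and -4.04 with zeros at the floor. The background holds genes that were measured through the transplanted or adult cells, and the set holds few of those. Among genes with at least 10 cultured counts the medians were closer, -7.64 for 23 genes of the set and -6.20 for all 3646 in transplanted cells, and -7.64 and -6.09 in adult cells. These medians describe the genes that passed, and nothing particular to the set is read from them. Of the measured genes of the set, 17 of 26 were at 0 in transplanted and 19 of 27 in adult cells, so the bounds rather than the sizes are measured. Lower bounds ran from 23.2-fold to 369-fold in transplanted and from 22.6-fold to 319-fold in adult cells. Leaving out a single cell ended the call, by the fold or by the count minimum, of 11 of the 23 lower genes in each comparison, the same 11 by name: Bmp4, Bmpr2, Fgf10, Fgf11, Fgfr1op2, Fzd3, Notch1, Smad1, Smad2, Smad4 and Wnt11. It ended 67.2% and 67.6% of the lower calls over all genes. The other 12, with Bmp5, Bmpr1a, Igfbp5, Smad5, Tgfb2 and Pdgfra among them, stayed past 2-fold whichever cell was left out.

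**Figure D5:**
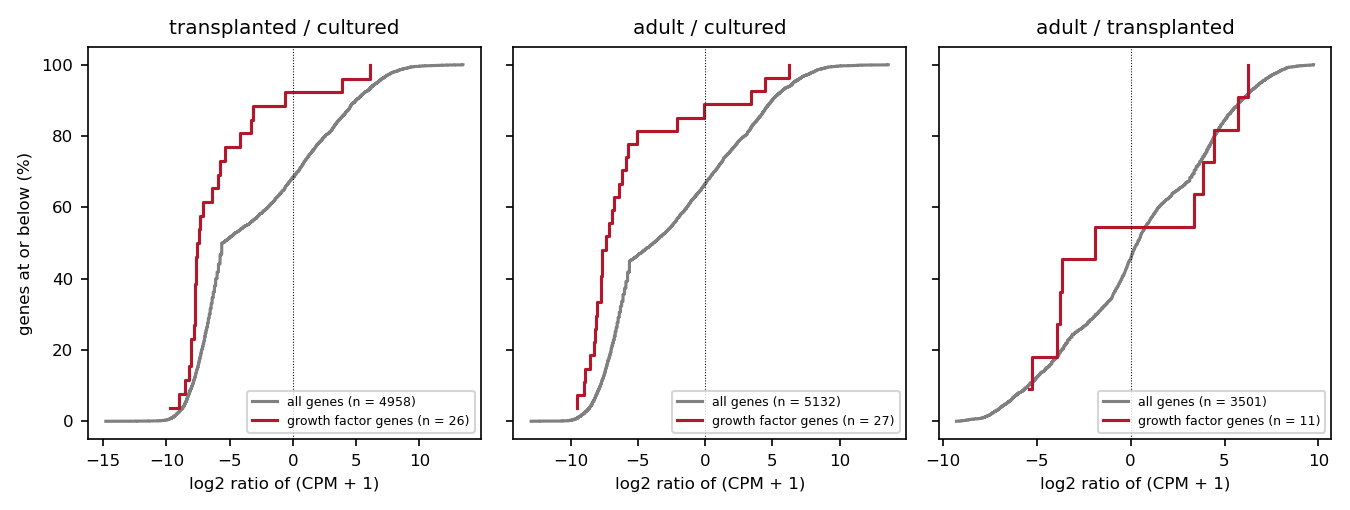
Cumulative share of measured genes by log2 ratio of CPM with 1 CPM added, for the set (red) and all listed genes (grey), in transplanted against cultured, adult against cultured and adult against transplanted cells. The median of the set against culture lies at -7.53 for transplanted and -7.37 for adult cells, left of the medians of all genes at -5.63 and -3.85.

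Without cultured cells F, G and H, 17 genes of the set were measured against transplanted cells and 14 were lower, with a background of 56.2%. Against adult cells 14 of 18 were lower, with a background of 54.1%. The set's median log2 ratio was then -6.92 for transplanted cells, where that of all genes was -2.91, and -7.12 for adult cells, where it was -1.95. These backgrounds again hold genes measured through the transplanted or adult cells. Medians among genes counted in culture were not taken in this setting, so nothing particular to the set is read from the gaps. Bmpr1a was 19.7-fold lower in transplanted cells in this setting and Igf1r at least 24.6-fold lower.

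Adult and transplanted cells were both low for the set, and few genes could be compared. Of 11 measured genes, 5 were higher in adult cells against a background of 44.3%, and 6 were lower against 34.8%. The higher genes were Wnt5b at least 32.8-fold, Smad2 at least 22.5-fold, Pdgfa at least 8.88-fold, Fgfr1op at least 5.81-fold and Igfbp6 at least 4.10-fold. Lower in adult cells were Tgfbr3, Bmpr1a at least 17.6-fold, Fgf16 at least 5.86-fold, Fgf1 at least 5.21-fold, Fzd2 at least 4.88-fold and Fgfr1op2 4.23-fold (1.70 to 12.6). Leaving out 1 cell ended each of these 11 calls, and without transplanted cell A Fgfr1op2 was 1.83-fold higher in adult cells. Over all genes it ended 78.3% of the higher and 83.7% of the lower calls. Of genes with at least 10 counts in a group, 5 of 6 in transplanted and 5 of 5 in adult cells had all their counts in 1 cell, against 46.2% and 39.6% of all such genes.

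Other genes of the same pathways, in 5 lists that hold none of the 50, were lower in most cases too. So were genes in general, 64.0% in transplanted and 62.1% in adult cells. Among genes with at least 10 cultured counts 84.6% and 84.0% were lower. Of all measured genes 22.5% and 23.0% were higher. Nothing particular to these pathways is read from the counts and medians of the lists. Of the partners of TGF-beta and BMP signalling, 19 of 21 measured genes were lower in transplanted than in cultured cells and none was higher. In adult cells 17 of 23 were lower and 1 was higher. Id2, a direct target of BMP signalling, had 119 counts over 4 cultured cells, 577 CPM (478 to 691), and none elsewhere, so it was at least 251-fold lower in transplanted cells and at least 245-fold in adult cells, or 58.5-fold and 57.1-fold at least without cultured F, G and H. Its relatives Id1 and Id3 were at least 48.4-fold and at least 96.9-fold lower in transplanted cells, or 14.2-fold and 16.6-fold at least without cultured cell G and 15.4-fold and 12.3-fold at least without F, G and H. Usp9x, a deubiquitinase that acts on Smad4, had 1043 CPM in culture and was 104-fold lower in transplanted cells (59.8 to 199), or at least 398-fold without transplanted D, which held all 13 transplanted counts. Smurf2, a ubiquitin ligase for SMADs and their receptors, was at least 413-fold lower, and at least 112-fold without cultured D. Fstl1, a secreted glycoprotein that binds BMPs, was at least 362-fold lower, and at least 47.6-fold without cultured H or 43.1-fold without F, G and H. Bambi, a decoy receptor, had 589 counts in adult A and none in other adult cells. It was 2.33-fold higher in adult than in cultured cells (1.70 to 3.28), but at least 69.5-fold lower without adult A. In transplanted cells it was at least 86.4-fold lower, or 16.6-fold at least without cultured G. Other genes of the list with at least 100 CPM that were lower in transplanted cells were the ligands Gdf11 and Mstn, the latent TGF-beta binding protein Ltbp1, the antagonists Nog and Twsg1, and the regulators of SMADs Smurf1, Skil, Ppm1a and Trim33. They had 107 to 267 CPM in culture, and for Mstn, Smurf1 and Ppm1a all of it was in 1 cell. Without cultured F, G and H the bound was 36.9-fold for Twsg1, and Nog had 1 count left and no ratio. Against adult cells, where cell F held all counts of both, the group sums of Twsg1 and Ppm1a stood near culture. Twsg1 was 1.27-fold higher in adult cells (0.896 to 1.85) and Ppm1a 1.04-fold lower (0.740 to 1.43). Without adult F they were at least 67.7-fold and at least 84.6-fold lower. Twsg1 was 2.39-fold higher without cultured G and 2.61-fold higher without F, G and H (1.47 to 5.11). Ppm1a was at least 13.0-fold higher without cultured A and 1.52-fold lower without F, G and H (1.08 to 2.09).

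Of the Wnt partners, 20 of 21 measured genes were lower in transplanted and 19 of 20 in adult cells, and none was higher in either. Tnks2, a tankyrase that marks Axin for degradation, was the most counted with 1756 CPM in 5 cultured cells and 416 CPM in 3 adult cells. It was 254-fold lower in transplanted cells (132 to 560), or 48.7-fold without cultured D and at least 690-fold without transplanted B. In adult cells it was 4.22-fold lower (3.68 to 4.83), but 38.8-fold lower without adult H and 1.24-fold higher without cultured D (0.945 to 1.64). Ctnnb1, which encodes beta-catenin, was counted in 7 of 8 cultured cells with 451 CPM (364 to 553). Its 94 transplanted counts were all in cell F, which made it 6.25-fold lower (4.64 to 8.42), or at least 173-fold lower without that cell and 4.01-fold lower without cultured E. Apc, part of the complex that destroys beta-catenin, was at least 270-fold lower in transplanted cells, and at least 65.7-fold without cultured B. Csnk1a1, a kinase of the same complex, was at least 183-fold lower, and no single cell moved that bound by over 1.5 times. Tnks, the other tankyrase, was at least 280-fold lower in transplanted and 51.3-fold lower in adult cells (30.4 to 92.3), but no ratio remains for transplanted cells, and adult cells were 1.12-fold higher, without cultured D, and at least 236-fold lower without adult G. Also lower in transplanted cells, with 131 to 330 CPM in culture, were the co-receptors Lrp6, Ryk and Lgr4, the ligand Rspo3, the Wnt carrier Wls, and Gsk3b, Dvl2, Btrc, Prickle2 and Pygo1 inside the cell. Rspo3 and Pygo1 were each counted in 1 cultured cell. Without cultured F, G and H the bounds were 12.3-fold for Btrc, 30.8-fold for Ryk, 33.8-fold for Lgr4 and Wls and 36.9-fold for Dvl2.

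Of the FGF and PDGF partners, all 14 measured genes were lower in transplanted cells. In adult cells 13 of 17 were lower and 3 were higher. Nf1, which turns off RAS, was at least 375-fold lower in transplanted cells, and no single cell moved that bound by over 1.5 times. Grb2, the adaptor between receptors and RAS, went the other way in adult cells, with 393 counts in 3 cells, 309 CPM (279 to 341). It had none in the cultured and transplanted groups, so it was at least 21.2-fold higher in adult than in cultured cells, and at least 3.48-fold without adult A. The phosphatase Ptpn11, known as SHP2, had 220 counts in 2 adult cells and none elsewhere, at least 11.9-fold above culture, with no ratio left without adult H. Lower in transplanted cells, with 112 to 567 CPM in culture, were also Nras, Braf, Ptk2, Frs2, Spred1, Gab1, Map2k1, Plcg1 and Flrt3, the last 4 counted in 1 cultured cell each. Ptk2 was 3.68-fold lower, but 3.74-fold higher without cultured B (1.43 to 13.9) and at least 149-fold lower without transplanted B. The counts of Gab1 were all in cell H and those of Flrt3 all in F, so no ratio remains for them without F, G and H.

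Of the IGF and insulin partners, 15 of 20 measured genes were lower and 3 higher in transplanted cells, and 15 of 18 were lower and 2 higher in adult cells. Igf2, the fetal ligand of Igf1r, had 119 counts in 3 cultured cells, which put it at least 251-fold lower in transplanted cells, or 133-fold at least without cultured G and 86.1-fold at least without F, G and H. Grb14, an adaptor that inhibits the insulin receptor, was higher outside culture, with 351 CPM in 4 transplanted and 637 CPM in 3 adult cells against 34.0 CPM in cultured cells. It was 10.3-fold higher in transplanted cells (4.97 to 25.8), 4.65-fold without cell D, and 18.8-fold higher in adult cells (9.07 to 46.8), 2.28-fold without adult A. Without cultured A, which held all cultured counts, the values were at least 21.8-fold and 39.6-fold. Rheb, which activates mTOR, was 3.65-fold higher in transplanted cells (2.01 to 7.41), but 1.18-fold lower without transplanted D and at least 12.1-fold higher without cultured A. In adult cells Rheb was 5.65-fold lower than in culture, 30.8-fold lower without adult B and not lower without cultured A. The receptors Insr and Igf2r and the signalling genes Grb10, Rptor, Rps6kb1 and Pik3r1 were lower in transplanted cells, with 121 to 262 CPM in culture, Rptor and Pik3r1 from 1 cell each. Grb10 was at least 99.0-fold lower in transplanted cells, or 27.7-fold at least without cultured F, G and H.

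Of the Notch partners, 11 of 14 measured genes were lower and 1 higher in transplanted cells, and 11 of 13 were lower and 1 higher in adult cells. Adam10, the protease that cleaves bound Notch, was 288-fold lower in transplanted cells (77.3 to 2410), or 172-fold without cultured H, at least 179-fold without transplanted C and 143-fold without cultured F, G and H. Mib1, which primes Notch ligands, was at least 147-fold lower, with no ratio left without cultured B. Adam17, a related protease, was 83.7-fold lower in transplanted cells (30.8 to 319), 31.4-fold without cultured B and at least 101-fold without transplanted B. Its 181 adult counts put it 1.81-fold lower there (1.30 to 2.46), or 6.73-fold lower without adult A and 1.48-fold higher without cultured B (0.859 to 2.76). Rbpj, the DNA-binding partner of cleaved Notch, was at least 65.3-fold lower in transplanted cells, or 21.4-fold at least without cultured H and 18.5-fold at least without F, G and H. Maml1, Ncstn and Itch were lower too, from 116 to 243 CPM in culture. Hey2, a Notch target of the compact ventricular myocardium, was the gene that was higher, with 219 counts in transplanted H alone. That is 168 CPM and at least 11.6-fold above cultured cells, and no ratio remains without that cell. Over the 5 lists the median log2 ratio of transplanted to cultured cells was -7.46, -7.24, -7.18, -5.45 and -6.42 in the order given, beside -5.63 for all genes. Without cultured F, G and H these were -7.21, -6.89, -7.33, -5.44 and -6.54. For adult cells they were -6.00, -6.81, -6.85, -5.89 and -6.30, beside -3.85 for all genes, and -4.55, -6.54, -6.75, -6.23 and -6.42 without those cells.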

How the data were processed

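Single cells were sorted or picked by hand, and their RNA was amplified by template switching and PCR and cut with Tn5, per the labels' protocols. The authors deposited whole-number read counts per gene and cell, without stated molecular identifiers. Per the submitters' processing notes, TopHat2 2.1.0, HTSeq, DESeq2 and mm10 were used. What each did, whether strand was counted and why these 9595 genes are listed is not given in the sources used here. No cell had a count for 692 of them.

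Counts were summed over the 8 cells of a group and divided by the group total (1302871 transplanted, 206178 cultured, 1271528 adult). Shares have Clopper-Pearson, levels exact Poisson and ratios exact conditional binomial intervals at 95%, computed with Python 3.11.15 and scipy 1.17.1. A group at 0 was set to 3 counts, and no ratio is given where both groups had 3 counts or fewer. Log2 ratios used a pseudocount of 1 CPM. Alternative scaling used edgeR 4.0.16 (TMM) and DESeq2 1.42.0 size factors in R 4.3.3. Every 2 cells of a group differed by more than sampling noise, with a chi-square per degree of freedom of at least 13.6.

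Exon lengths and positions came from GENCODE on GRCm38, where 9343 symbols matched directly, 178 by an older symbol and 74 not at all. Of the 50 genes, 20 share exon bases with another gene, 3 of them over 10% (Tgfbr3l, Bmp5 and Pdgfa), and their reads may be placed on either gene. Promoter sequences came from RefSeq and matched 36 of the 50 genes by symbol.

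Genes with at least 20 counts over the 24 cells were described with ratios, 24 in all, and the other 23 with counts by their counts alone, besides those named to complete a short count of calls after their values were seen. Of each partner list, the 3 genes with the most CPM and those past 2-fold with at least 100 CPM were named, except a few that are not reported here. The genes and lists were chosen with earlier results of these data known. Alternatives were other scalings, count minimums, pseudocounts, fold thresholds, equal weight per cell, thinning and leaving out each cell. Leaving out cultured cells F, G and H together was chosen after their marker counts were seen.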

Additional observations from a re-analysis of the deposited data

Results flagged for a closer look

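Among the shares of the set, the numbers of genes detected and the 2 genes counted in at least 5 of the 8 cells of a group, 1 value stood apart from the other cells of its group. Genes counted in fewer cells were not checked, since they stand apart by construction. Igfbp5 in cultured cell F reached 4817 CPM, and the nearest cultured cell, A, had 1817 CPM. The gap was 0.623 of the range of the 8 cells, above Dixon's 95% critical value for that number. Chance flags about 1 in 20 such groups, and 8 were checked. Cell F had 0.742% of its counts on cardiomyocyte markers.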

How the results depend on the processing

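With no count minimum, 41 of 44 measured genes were lower than in culture in transplanted cells, with 6161 of 8270 over all genes. In adult cells 41 of 46 were lower, with 6071 of 8472 over all genes. The median log2 ratios of the set were then -5.11 (transplanted) and -5.19 (adult), beside -3.96 and -3.42 for all genes. With a pseudocount of 10 CPM these medians were -4.37 and -4.24, beside -2.66 and -2.55. TMM scaling moved the median of all genes by 0.87 in transplanted and 0.88 in adult cells (DESeq2 size factors by 0.19 and 0.13, equal weight per cell by 0.82 and 0.13). With TMM the medians of the set were -6.85 and -6.77, and 2 of 27 genes were higher in adult cells, with 1565 of 5132 over all genes. Leaving out cultured F, G and H gave 14 lower genes in each comparison, where 56.2% (transplanted) and 54.1% (adult) of all genes were lower. It gave a median of -6.92 for transplanted cells and a cultured share of 0.510%. Leaving out 1 cell gave 19 to 23 lower and 0 to 2 higher genes in transplanted cells, with a median of -7.74 to -7.26. In adult cells it gave 18 to 23 lower and 0 to 1 higher genes, with a median of -7.65 to -7.03. The ranges over all genes are not given here. With no cell left out, 64.0% of all genes were lower and 22.5% higher in transplanted cells, and 62.1% and 23.0% in adult cells.

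For adult against transplanted cells, a minimum of 30 counts left 2 higher and 3 lower of 5 genes, with 1104 and 946 of 2730 over all genes. With the minimum of 10 counts and no cell left out, 44.3% of all genes were higher and 34.8% lower. With 1 cell left out, 3 to 5 of the set were higher and 3 to 6 lower. The median, -1.87, was -0.82 with no minimum, -1.03 with a pseudocount of 10 CPM, and -3.65 to 3.61 with 1 cell left out, turning positive without transplanted B (3.61) or G (3.38). Fgfr1op2 turned to 0.87 on the log2 scale without transplanted A (range -3.46 to 0.87), and Smad2 in adult against cultured cells to 0.11 without cultured B (range -6.42 to 0.11). The IGF partners' median turned to 0.76 without transplanted A (range -3.27 to 0.76). The Notch partners' median turned to -0.40 with a minimum of 30 counts, -0.36 without adult B and -0.46 without adult D (range -0.46 to 3.59).

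The share of the set was 0.0228%, 0.729% and 0.0233% in transplanted, cultured and adult cells without the 10 most counted genes, and 0.0237% and 0.0151% in transplanted and adult cells with equal weight per cell. With 1 cell left out it was 0.00831% to 0.0231%, 0.606% to 0.783% and 0.0108% to 0.0202%. The median number of genes detected was 0.0907 and 0.577 in transplanted and adult cells after thinning, and 0 to 1, 8 to 10 and 1 to 2 with 1 cell left out.

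No paired analysis was possible because the letters only name cells. The cause of these shifts was not tested. Cultured depth limits what can be called higher outside culture, since its floor is 14.6 CPM.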
